A study of Caenorhabditis elegans with 2 samples.

Results

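The genes described here encode the sodium leak channel NALCN and the voltage-gated calcium channels of the nematode Caenorhabditis elegans. They are 10 named genes, taken by name from the Ensembl annotation of 19973 protein-coding genes on the nuclear chromosomes, and all 10 were found. The NALCN group holds unc-77 (also called nca-1) and nca-2, which encode the pore-forming subunits, unc-79 and unc-80, which encode large auxiliary subunits, and nlf-1, which encodes an endoplasmic reticulum protein needed to deliver the channel to axons. The calcium channel group holds the pore-forming genes unc-2 (the presynaptic P/Q-type-like channel), egl-19 (the L-type channel of muscle and neurons) and cca-1 (the T-type channel), with the accessory genes unc-36 (an α2δ subunit) and ccb-1 (a β subunit). NALCN passes a small steady sodium current that sets how easily a neuron fires, and the calcium channels turn depolarisation into calcium entry, which drives transmitter release at synapses and contraction in muscle.

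The data are chromatin immunoprecipitation with sequencing (ChIP-seq) of CEH-48, a ONECUT homeodomain protein of the nervous system, from 1 group of 2 biological replicates. The samples were whole late embryos of pooled males and females, taken 3.5 hours after synchronisation by egg bleaching, of the single transgenic line OP631, whose genotype unc-119(tm4063) III; wgIs631 is common to both replicates. The line carries CEH-48 with a C-terminal GFP-FLAG tag; the sequence that drives the transgene is not stated in the labels. Neurons are only part of a whole embryo, and no untagged strain or other condition is analysed here. A region is a called interval with a summit, its point of highest enrichment, and a signal value on a scale that the sources used here do not state. The authors' reproducible set (IDR peaks) holds 1840 regions with signals between 85.2 and 1044 and a median of 141, and the list made from both replicates pooled holds 30000 regions, background included. The replicate 1 list holds 28372 regions and the replicate 2 list 30000. A region was assigned to a gene when its summit lay in the gene body or within 3 kb of the 5′ end of the gene, on either side. Read numbers are not in the lists, so depth is unknown.

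CEH-48 had 1 IDR peak at each of 5 of the 10 channel genes and none at the other 5. In the NALCN group these were unc-80, unc-79 and nca-2, and in the calcium channel group unc-2 and unc-36. The auxiliary subunit gene unc-79 had the highest signal (308.9, rank 224 of 1840), followed by nca-2 (256.4, rank 346), unc-36 (239.8, rank 390), unc-2 (123.7, rank 1115) and unc-80 (93.8, rank 1618). The unc-79, nca-2 and unc-36 peaks thus lie in the stronger part of the set and the unc-2 and unc-80 peaks below its median. None of the 5 summits lay on a repeat-masked base, against 31.4% of all IDR summits.

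An IDR summit was thus assigned to 50% of the channel genes (95% exact binomial interval 18.7 to 81.3%, which covers counting only), against 13.5% of all protein-coding genes (2700 of 19973). The channel genes are long, with a median of 15190 bp against 2027 bp for all protein-coding genes. The rule covers more sequence at a longer gene, but of the 5 summits only that of unc-2 lay in a gene body. Whether length bears on the share was not tested. Within a class of gene length, none of 1 channel gene under 5 kb had a summit, against 11.9% of all genes of that length. The count was 1 of 2 channel genes of 5 to 10 kb against 20.6% of all genes, 3 of 4 against 24.7% at 10 to 20 kb, and 1 of 3 against 24.2% over 20 kb. Counted per length, the 218 kb of sequence around the channel genes held 2.29 IDR summits per 100 kb, close to the 1.84 per 100 kb of the genome. This length (29552 bp of it) and the counts of genes without a summit include unc-77, at which the pooled list held no region. Only 2 of the 10 genes, unc-80 and unc-36, had an IDR summit in the promoter window, which reaches 1000 bp before and 200 bp past the 5′ end; 6.29% of all protein-coding genes had one there. Since the genes were proposed with earlier results known, no test was made of these counts.

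**Figure D1:**
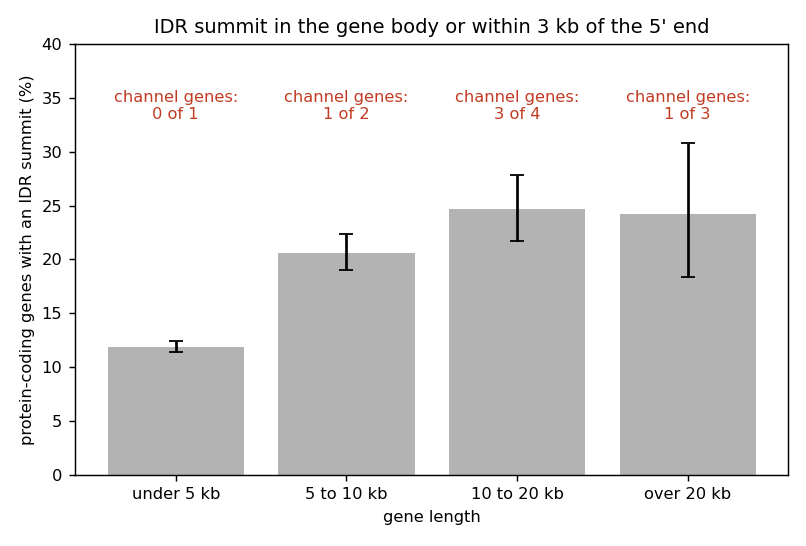
Share of protein-coding genes with an IDR summit in the gene body or within 3 kb of the 5′ end (y axis, percent), by class of gene length (x axis); bars are shares over all genes of the class and lines are 95% exact binomial intervals. The red text counts channel genes with a summit: 3 of the 4 in the class of 10 to 20 kb had one, beside a share of 24.7% for that class.

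The sequence at the summits shows where the peaks carry the ONECUT core motif ATCGAT and where they do not. The 100 bases centred on the summit are given below on the plus strand of WBcel235, with ATCGAT, or its near form ATTGAT on either strand, in capitals; ATCGAT reads the same on both strands. The nlf-1 region is shown with them because it is the strongest region of a NALCN gene below the IDR threshold. In the calcium channel group, the ccb-1 region below the threshold was stronger (85.09 against 77.3). Its window holds neither form and is not shown.
unc-79: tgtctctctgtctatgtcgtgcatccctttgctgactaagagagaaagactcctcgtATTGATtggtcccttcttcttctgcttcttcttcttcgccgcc
nca-2: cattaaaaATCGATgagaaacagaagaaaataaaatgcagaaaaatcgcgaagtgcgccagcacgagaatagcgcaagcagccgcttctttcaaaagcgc
unc-36: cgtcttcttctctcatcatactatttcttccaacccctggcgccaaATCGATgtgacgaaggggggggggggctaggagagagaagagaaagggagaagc
unc-2: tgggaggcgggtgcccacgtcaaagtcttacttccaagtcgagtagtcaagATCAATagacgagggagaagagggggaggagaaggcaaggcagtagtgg
unc-80: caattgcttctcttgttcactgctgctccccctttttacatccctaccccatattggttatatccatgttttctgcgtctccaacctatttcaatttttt
nlf-1: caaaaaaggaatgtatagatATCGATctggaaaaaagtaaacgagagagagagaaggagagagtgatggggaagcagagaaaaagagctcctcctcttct

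ATCGAT was present at 2 of the 5 IDR summits, those of nca-2 and unc-36, and 44.2% of all 1840 IDR windows of this length hold it. This count depends on the replicate: the strongest 1840 regions of replicate 1 alone met 4 channel genes and gave 0 summits with ATCGAT. Those of replicate 2 met 6 channel genes and gave 3, at nca-2, unc-36 and nlf-1, the last a gene without an IDR peak. The share over all regions of each replicate was not counted. The replicate 1 summits lay 49 bp from the IDR summit at unc-36 and 34 bp from it at nca-2, and their windows hold no ATCGAT. In the IDR windows, ATCGAT at unc-36 begins 4 bp before the summit and at nca-2 it begins 42 bp before. At unc-79 and unc-2 the windows hold ATTGAT instead, beginning 7 bp and 1 bp past the summit; at unc-2 it is on the minus strand and so reads ATCAAT. With ATTGAT allowed, 4 of the 5 windows match, against 62.4% of all IDR windows. The unc-80 window holds neither, and neither form says by itself whether a factor binds there.

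Within the NALCN group, the unc-79 peak lay upstream of the gene, on chromosome III from 4063911 to 4064043. Its summit was 2637 bp before the 5′ end of unc-79 (chromosome III from 4066633 to 4082849, plus strand), and no other protein-coding gene begins nearer. An annotated non-coding RNA, E03A3.11, begins 256 bp before the summit. The signal was 75.9 in replicate 1 (rank 296) and 243.4 in replicate 2 (rank 181), so both replicates placed it well inside their strongest 1840 regions. A further region, in an intron 3716 bp into unc-79, had a pooled signal of 72.3 (rank 2324), below the IDR threshold, with ranks of 2392 and 3720 in replicates 1 and 2.

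The nca-2 peak, on chromosome III from 4962985 to 4963184, is shared with other genes. Its summit was 2484 bp upstream of nca-2 (chromosome III from 4965571 to 4979738, plus strand). It lay 43 bp upstream of C27F2.9, a gene on the opposite strand whose 5′ end is the nearest, and 594 bp upstream of vps-22, an ESCRT-II subunit gene of endosomal sorting. The peak is therefore in the promoter windows of C27F2.9 and vps-22 and not in that of nca-2, and a rule that assigns a summit to its closest 5′ end would leave nca-2 without one. Its signal was 75.9 in replicate 1 (rank 297) and 177.4 in replicate 2 (rank 383). The only other pooled region at nca-2 was weak (28.3, rank 16772) and lay in an exon.

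The unc-80 peak was the weakest of the 5 and the closest to the 5′ end of the channel gene it was assigned to. It ran from 20879292 to 20879661 on chromosome V, with the summit 124 bp upstream of unc-80 (chromosome V from 20879601 to 20898948, plus strand). No other gene annotated as protein-coding, ncRNA, pseudogene or tRNA begins within 5 kb of the summit. Other classes of gene were not searched. The signal was 38.1 in replicate 1 (rank 1088) and 54.8 in replicate 2 (rank 2277), and the replicate summits lay 130 and 66 bp upstream of the 5′ end. In replicate 2 alone it falls outside the 1840 strongest regions, whose lowest signal was 62.9. The pooled list held 12 further regions over unc-80, with signals between 23.1 and 36.4.

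Of the remaining NALCN genes, nlf-1 came near the threshold. Its strongest pooled region, on chromosome X from 1018507 to 1018876, had its summit 1125 bp upstream of nlf-1 and a signal of 77.3 (rank 2118, against 1840 IDR peaks). Replicate 2 had it among its strongest 1840 regions (66.6, rank 1702), while in replicate 1 the region within 100 bp was weak (13.0, rank 13841). The ATCGAT copy in the window is the only one in the gene and the 3 kb on each side of its 5′ end. The pooled summit lay on a repeat-masked base, 7 bp before the start of an annotated non-coding RNA, F55A4.12.

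For unc-77, the paralogue of nca-2, the lists give no usable answer. The gene (chromosome IV from 6157306 to 6183857, minus strand, 16 annotated transcripts from 5 starts) had no region in the pooled or replicate 2 list, whereas 69.8% of protein-coding genes and the other 9 channel genes had at least 1 pooled region. It lies wholly inside a stretch of 181 kb, from 6129574 to 6310562, with no pooled summit, the 4th longest such stretch of 29994 in the genome. That stretch holds 39 protein-coding genes and 247 annotated piRNA genes, and 8 of the 10 longest stretches without a pooled summit lie on chromosome IV, where 14714 of the 15363 piRNA genes are. Replicate 1 had 25 regions in the same stretch, of which 4 were at unc-77, the strongest 10031 bp into the gene with a signal of 20.6 (rank 3717). Within 50 kb of the gene there were 2 pooled, 22 replicate 1 and 1 replicate 2 regions. The absence of a peak at unc-77 thus belongs to a wide interval in which the pooled and replicate 2 lists hold nothing, and what sets that interval apart was not tested.

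**Figure D2:**
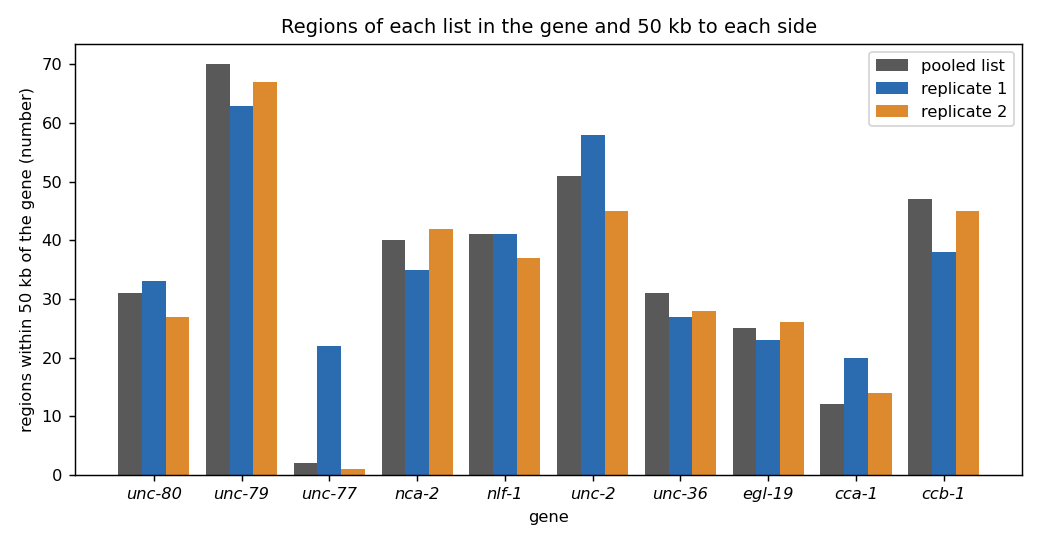
Number of regions (y axis) of the pooled, replicate 1 and replicate 2 lists with a summit in each gene or within 50 kb of it (x axis). At unc-77 the pooled and replicate 2 lists hold 2 and 1 regions and replicate 1 holds 22, while at the other 9 genes the 3 lists hold between 12 and 70.

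**Figure D3:**
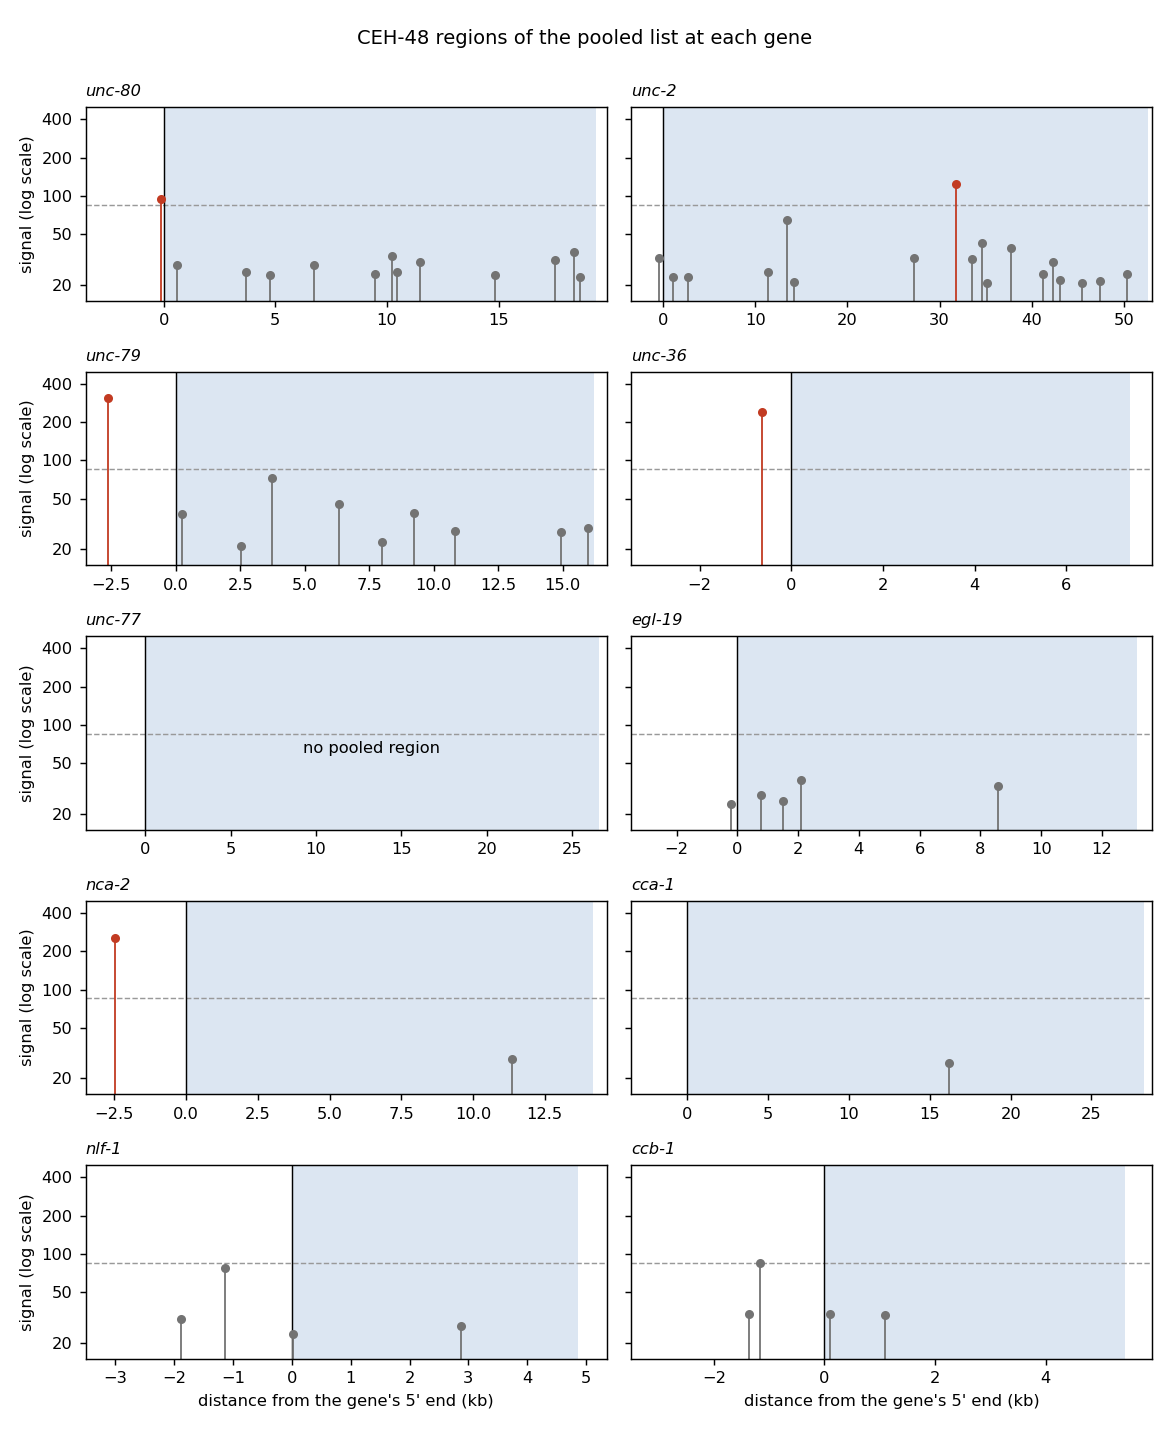
Signal of every pooled region (y axis, log scale) against its distance from the 5′ end of each gene in kb (x axis, positive into the gene); shading marks the gene body, the dashed line the lowest IDR signal of 85.2, red the IDR peaks. The red points lie upstream of unc-80, unc-79, nca-2 and unc-36 and inside unc-2, and the strongest ccb-1 region sits at the line.

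In the calcium channel group, unc-2 had its peak far inside the gene. The peak, on chromosome X from 2731524 to 2731893, had its summit 31817 bp into unc-2 (chromosome X from 2710920 to 2763526, minus strand), in an intron. The protein-coding gene with the nearest 5′ end to the summit is igcm-3. A rule that assigns a summit to its closest gene 5′ end would leave unc-2 without one. The unc-2 gene has 15 annotated transcripts from 8 starts, and 1 of these starts, at 2731426, lies 283 bp downstream of the summit. With the promoter window drawn at every transcript start, unc-2 joins unc-80 and unc-36, for 3 of 10 channel genes against 6.8% of all protein-coding genes. The replicates differed here more than at the other 4 peaks: the signal was 15.7 in replicate 1 (rank 8228) and 113.6 in replicate 2 (rank 802). Replicate 2 signals exceeded replicate 1 signals by 1.44 ± 0.58 log2 units over the 1737 IDR peaks found in both lists (mean ± SD over peaks), and at unc-2 the difference was 2.85, higher than at 98.4% of these peaks. Without replicate 2, unc-2 would have no region among the strongest 1840. A second region, 13440 bp into the gene, had a pooled signal of 65.1 (rank 2783) and lay in sequence of 68% G and C. Within 3 kb of the 5′ end of unc-2 the pooled list held 3 weak regions, the strongest of them 414 bp upstream (32.2, rank 12667).

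The unc-36 peak, at the α2δ subunit gene, lay 648 bp upstream of the 5′ end, on chromosome III from 8201782 to 8201941 (gene from 8193843 to 8201217, minus strand). It was the only pooled region at unc-36. The summit is inside a non-coding RNA gene on the opposite strand, C50C3.15, and 1189 bp upstream of snb-5, a synaptobrevin-like gene that begins on the other side. Its signal was 32.1 in replicate 1 (rank 1430) and 204.0 in replicate 2 (rank 284), a difference of 2.67 log2 units, higher than at 97.2% of IDR peaks. Both ranks are inside the strongest 1840 regions of the replicate. The corresponding differences were 1.68 at unc-79, 1.23 at nca-2 and 0.53 at unc-80, the last higher than at only 5.41% of IDR peaks.

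**Figure D4:**
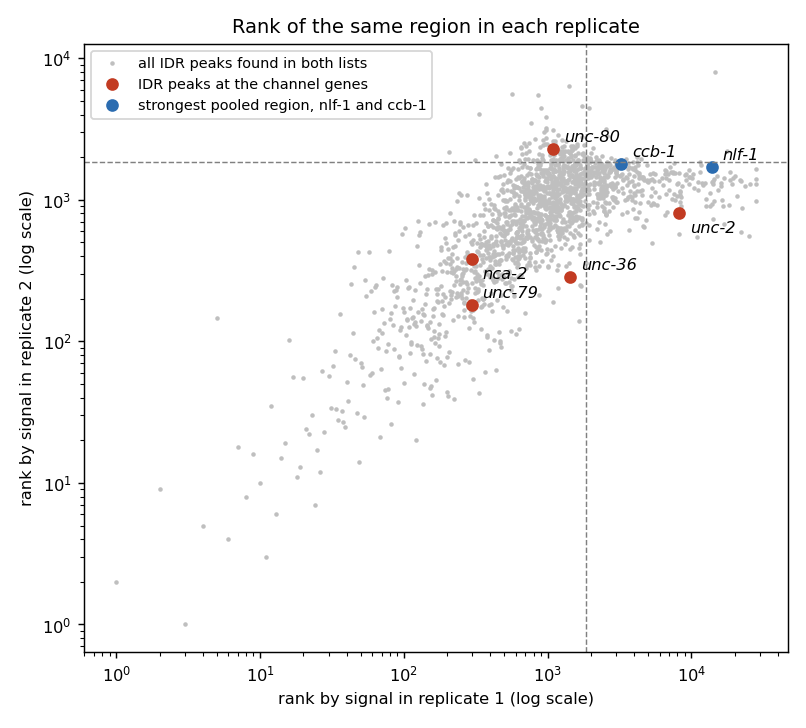
Rank by signal of the same region in replicate 1 (x axis, log scale) and replicate 2 (y axis, log scale), with summits within 100 bp; grey points are all 1737 IDR peaks found in both lists and dashed lines mark rank 1840. The unc-79, nca-2 and unc-36 peaks lie inside both lines, unc-2 at rank 8228 in replicate 1 and unc-80 at rank 2277 in replicate 2 lie outside one of them.

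The β subunit gene ccb-1 missed the IDR set by 3 places. Its strongest region lay 1161 bp upstream of the 5′ end on chromosome I, from 3648058 to 3648427, with a pooled signal of 85.09 and rank 1843, and the last IDR peak, of rank 1840, had a signal of 85.17. In replicate 1 the region ranked 3254 (signal 21.6) and in replicate 2 it ranked 1785 (64.5). A presence or absence call at this gene therefore rests on a signal difference of less than 1 unit.

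The L-type channel gene egl-19 and the T-type channel gene cca-1 had weak regions only. The strongest pooled region at egl-19 had a signal of 36.8 (rank 9264), in an intron 2094 bp into the gene. However, a strong IDR peak on chromosome IV from 7402098 to 7402405 lay 3318 bp upstream of egl-19, just beyond the 3 kb limit, with a signal of 382.7 (rank 113) and ranks of 176 in replicate 1 and 93 in replicate 2. This is a higher signal than at any of the 5 counted peaks. The nearest protein-coding 5′ end to it belongs to C48A7.16, an annotated gene of only a few codons just upstream of egl-19. At cca-1 the single pooled region had a signal of 26.7 (rank 18932) and no summit within 100 bp in either replicate, and the nearest IDR summit lay 52786 bp from the 5′ end. The nearest IDR summits to the 5′ ends of nlf-1, ccb-1 and unc-77 lay 17640, 10365 and 139984 bp from those ends. At cca-1 and ccb-1 this summit lay past the 3′ end of the gene (28277 and 5432 bp long), so it was closer to the gene than to its 5′ end.

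Taken from each replicate alone, the strongest 1840 regions gave 4 channel genes in replicate 1 (unc-80, unc-79, nca-2 and unc-36), where 13.0% of protein-coding genes had one. Replicate 2 gave 6 (unc-79, nca-2, nlf-1, unc-2, unc-36 and ccb-1), against 13.4%. The genes unc-79, nca-2 and unc-36 were found in both replicates and in the IDR set. All 5 IDR summits had a region within 100 bp in both replicates' full lists, which also hold background. The same held for 1737 of all 1840 IDR peaks.

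Below the threshold, the pooled list held 53 further regions at the channel genes. Of all 58 pooled summits at the channel genes, IDR peaks included, 29 were in introns, 19 in exons and 10 upstream. For 17 of the 58 each replicate list also placed a summit at most 100 bp away. These counts were not set beside those of other genes. The largest numbers were at the long genes unc-2 (18 regions) and unc-80 (13). The density of pooled summits at the channel genes, 26.6 per 100 kb, was near that of the genome, 29.9 per 100 kb.

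Genes that work with these channels were counted by the same rule, under which 13.5% of all protein-coding genes had an IDR summit. Of 3 further calcium channel genes, calf-1, which encodes an endoplasmic reticulum protein needed to bring UNC-2 to synapses, had a summit 10 bp past its 5′ end (signal 273.4, rank 300, and ranks of 179 and 349 in replicates 1 and 2), and tag-180 and ccb-2 had none. Among 10 calcium effectors, 3 had a summit: cnb-1 and tax-6, the calcineurin subunit genes (294.3 and 199.7), and unc-31, a dense-core vesicle release gene (256.3). Replicate 1 alone gave 4 of these effectors and replicate 2 gave 6. Intracellular calcium genes gave 2 of 16 (12.5%, near the share of all genes), sca-1, the endoplasmic reticulum calcium pump gene (150.5), and micu-1, a regulator of mitochondrial calcium uptake (117.2); the micu-1 peak had no matching summit in replicate 1.

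The potassium channel and innexin lists are set beside the same 13.5% of all protein-coding genes. Of 20 voltage-gated and calcium-activated potassium channel genes, 1 had an IDR summit, slo-1, the large-conductance calcium-activated channel gene (293.5, rank 255), although replicate 1 alone gave 3. The median gene length was 11610 bp in this list, 4362 bp in the potassium leak channel list and 3138 bp among the innexins. It was 4045 bp for the further calcium channel genes, 9250 bp for the calcium effectors and 7798 bp for the intracellular calcium genes. The channel genes had a median of 15190 bp, and whether length bears on these shares was not tested. The potassium leak channel list gave 2 of 16, unc-58 (175.1) and twk-30 (164.8). None of 21 innexin genes had one, which allows a share of up to 16.1% (95% exact binomial interval). The intervals of these 3 lists contain 13.5%, as do those of the calcium lists above. Differences between the lists were not tested.

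**Figure D5:**
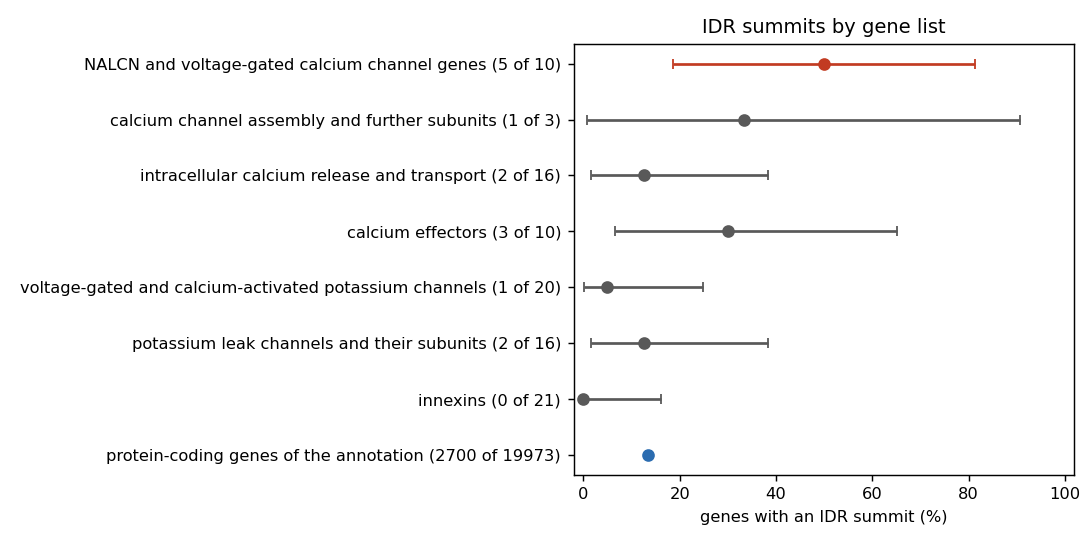
Share of genes with an IDR summit in the gene body or within 3 kb of the 5′ end (x axis, percent) for the channel genes, the other gene lists and all protein-coding genes, with 95% exact binomial intervals. The channel genes are at 50%, innexins at 0% and all protein-coding genes at 13.5%.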

How the data were processed

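Regions were those of the deposited narrowPeak lists in ce11 coordinates. The authors made 1 list of regions, weak ones included, from each replicate and 1 from the replicates combined, and the IDR peaks were made from such lists, per the read-me files. The signal is the authors' deposited value and was compared only within a list, apart from the log2 ratio of replicates. The −log10 q-value is also the authors' deposited value and was not used. How reads were aligned, which program called peaks and at which IDR threshold is not given in the sources used here. All 1840 IDR summits are among the 1840 pooled regions of highest signal.

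Gene positions came from Ensembl release 115 for WBcel235, whose sequence (RefSeq) has ce11 coordinates; ce10 lists were not used. Regions of different lists were matched when their summits lay at most 100 bp apart. The channel genes and lists were chosen with earlier results of these data known, so no test was made, and intervals cover counting only. The innexin list lost inx-4, which was not found by name. Named genes are all channel genes, genes whose promoter window or nearest 5′ end a summit met, and up to 4 genes of each other list by signal; the genes without summits were named after their values were seen. The result of 1 further list is not reported here. The assignment rules were checked on planted positions. Python 3.11.15, numpy 2.4.6, pandas 2.3.3, scipy 1.17.1 and matplotlib 3.10.9 were used.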

Additional observations from a re-analysis of the deposited data

How the results depend on the processing

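The count of 5 channel genes, and likewise of 5 IDR summits, became 3 with a window of 1 kb, 3 with the 920 IDR peaks of highest signal and 3 with each summit given to the nearest protein-coding 5′ end. A window of 5 kb gave 6, adding egl-19, and each replicate alone gave 4 to 6 genes and 4 to 6 summits. Counting only the upstream side, or every transcript start, left the count at 5. The 2 genes with a summit in the promoter window became 1 with the window of 500 bp upstream to 100 bp downstream (unc-80) and 1 with the 920 strongest peaks (unc-36), and each replicate alone gave 1 to 2. The 2 summits with ATCGAT became 1 in windows of 50 bp and 4 with ATTGAT allowed. Each replicate alone gave 0 to 3 summits with ATCGAT. The share over all protein-coding genes, 13.5%, was 8.72% with 1 kb, 18.1% with 5 kb, 7.13% with the 920 strongest peaks and 8.03% by nearest 5′ end (both shares added after seeing the data), and 11.9, 20.6, 24.7 and 24.2% in the 4 classes of gene length, short to long. The 3 calcium effectors with a summit were 1 with 1 kb, and each replicate alone gave 4 to 6, a check chosen after seeing the data. Depth is unknown, so a missing region is not evidence that CEH-48 was absent.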

Other observations

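Most copies of the ONECUT core had no IDR summit beside them, at the channel genes as in the whole genome. The gene bodies and the 3 kb around their 5′ ends held 54 copies of ATCGAT, of which 2 lay within 100 bp of an IDR summit and 6 within 100 bp of any pooled summit. Over the whole genome, 1888 of 37650 copies (5.01%) lay within 100 bp of an IDR summit. The genome share for pooled summits was not counted. The gene unc-2 held 11 copies, none near its IDR summit and 2 near weaker pooled summits. Of the 54 copies, 7 were at unc-77, where the pooled list holds no region to compare, and 47 at the other 9 genes.

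No channel gene had more than 1 IDR summit, and by the same rule 1.92% of protein-coding genes (383) had at least 2, led by pro-3 with 8 and Y25C1A.7 and eme-1 with 7 each.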
